A study of Mus musculus with 6 samples.

Results

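Potassium channel genes were described here in mouse myoblasts, the cells that fuse into muscle fibres, with and without a functional Hdac11 gene, which encodes the class IV histone deacetylase. They were taken as every gene symbol in the count table that begins with Kcn, continues in letters and ends in a number, and 57 of 21778 symbols met this rule. The series holds 6 poly(A) RNA libraries, 3 labelled Hdac11-/- (KO) and 3 labelled wild type (WT), all C57BL/6. The KO mice carry a deletion of exon 3 of Hdac11, made with floxed alleles and a CRE recombinase under the SOX2 promoter, leaving, per the labels, a truncated protein of 59 amino acids, and littermates served as WT controls. In both groups the cells were sorted from hindlimb muscle for alpha 7-integrin and CD34, grown as primary cultures and plated on matrigel at 26000 cells per cm2. They were collected when differentiation medium (2% horse serum) had been on for 24 h, so undifferentiated cultures are in neither group. The deletion is a total one, present from the embryo onward, and the design text speaks of biological replicates from mice without saying how many animals each culture came from.

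Potassium channels let potassium leave the cell and so hold the membrane at a negative voltage. In human myoblasts, a hyperpolarization carried by the ether-a-go-go channel (encoded in mouse by Kcnh1) and then by an inward rectifier (Kcnj2) precedes fusion. It is known there to open a window for calcium entry, which acts through calcineurin on the factors that start differentiation. The genes fall into voltage-gated (Kv) pore subunits, inward rectifiers, tandem-pore background channels, calcium- and sodium-activated channels, and auxiliary subunits that modify the pores.

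Total counts per library ran from 16742457 to 22835394, and between 0.0407% and 0.0636% of them fell on the 57 genes. Levels are given as CPM, the usual per-library scaling of read counts, here by the TMM-scaled library size. Hdac11 had 33.5, 76.4 and 30.2 CPM in the KO libraries and 63.0, 79.5 and 73.8 CPM in the WT libraries, both in replicate order, as everywhere below. The Hdac11 level of the library labelled KO replicate 2 thus fell inside the WT range, and where leaving it out changes a call, turns a sign or moves a log2 fold change of a main channel gene by over 1.5 times, the value without it is given. Kcnc1, Kcnh7 and the genes that are not channels are given with all libraries only. A count over the whole gene does not show whether exon 3 was deleted. All 8 markers of skeletal myoblasts were measured, with a summed level of 6108 to 8574 CPM in KO and 9691 to 10670 CPM in WT. Their edgeR log2 fold changes ran from -0.88 for Des to 0.66 for Pax7, the only 1 higher in KO by fitted value. Myod1 was at -0.05 and Myf5 at -0.02. Of 8 markers each for other cells, 6 fibroblast markers (nearly all Col3a1) summed to 627 to 770 CPM in KO and 332 to 542 CPM in WT. Schwann cell markers (6 measured, nearly all Erbb3) summed to 150 to 413 CPM in KO and 427 to 863 CPM in WT. Of the 3 tested, 2 were lower in KO and Mbp was higher, with a DESeq2 adjusted p of 0.0127. The 5 neuronal markers summed to 32.5 to 66.1 CPM in KO and 23.3 to 50.2 CPM in WT. Among them Stmn2 was higher in KO, with a DESeq2 adjusted p of 0.00882. Smooth muscle (7 measured, mostly Smtn and Notch3) and endothelial markers (7 measured) overlapped between the groups, at most 662 and 13.4 CPM. Of the smooth muscle list, Myh11 was at most 1.28 CPM and Cnn1 at most 0.423 CPM in any library. Rgs5 was at 2.27 to 31.6 CPM, Pdgfrb at 0.582 to 16.0 CPM and Cspg4 at 1.64 to 6.93 CPM. The 1 adipocyte marker measured, Pparg, stayed under 3 CPM. The part of these other cells in the channel differences was not tested. Genes of differentiated muscle and of dividing cells differed between the groups, and their values stand beside the channel results below. Across all 14835 genes tested, edgeR called 0 at an adjusted p under 0.05, limma-voom 0, and DESeq2 608 higher and 322 lower in KO.

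The window before the transcription start, from the RefSeq promoter table of GRCm38.p6, is printed here for 3 of the channel genes that the results turn on. These are Kcnn4 and Kcnk5 on the higher side and Kcnj2 on the lower side. Each line is the 250 bases before the start, 5′ to 3′ on the gene's strand, with E-boxes (CANNTG) in capitals. CANNTG is a general motif that MyoD-family factors share with other factors, so a marked stretch is not particular to them. Kcnn4 is on chr7:24370013-24370262 (+), Kcnk5 on chr14:20181783-20182032 (-) and Kcnj2 on chr11:111065914-111066163 (+).
Kcnn4: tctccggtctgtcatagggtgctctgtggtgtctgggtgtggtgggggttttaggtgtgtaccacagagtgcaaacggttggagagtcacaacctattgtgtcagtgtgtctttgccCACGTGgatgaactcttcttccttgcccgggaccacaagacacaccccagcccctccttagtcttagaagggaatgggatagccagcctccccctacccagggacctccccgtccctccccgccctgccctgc
Kcnk5: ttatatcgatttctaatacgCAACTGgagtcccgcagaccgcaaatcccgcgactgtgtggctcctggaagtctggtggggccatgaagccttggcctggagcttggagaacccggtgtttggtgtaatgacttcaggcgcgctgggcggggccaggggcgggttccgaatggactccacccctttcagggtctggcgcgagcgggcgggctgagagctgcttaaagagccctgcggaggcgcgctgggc
Kcnj2: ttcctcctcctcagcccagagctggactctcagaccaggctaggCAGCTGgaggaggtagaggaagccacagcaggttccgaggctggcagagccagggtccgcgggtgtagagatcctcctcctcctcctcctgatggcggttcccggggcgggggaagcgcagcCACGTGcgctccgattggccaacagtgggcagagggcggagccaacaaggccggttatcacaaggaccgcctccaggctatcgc
The Kcnn4 window holds 1 E-box, a CACGTG, and that of Kcnk5 holds 1, a CAACTG. That of Kcnj2 holds 2, a CAGCTG, which is itself a CANNTG, and a CACGTG. The motifs were searched on both strands, and CANNTG reads the same on each. An E-box was in 66.2% of the 32851 windows of this length in the table and in 64.9% of the 57 windows of the 40 channel genes it holds. CAGCTG was in 13.0% and 22.8% of them. The AP-1 motif TGANTCA and the MEF2 motif (CTA, 4 bases of any kind, TAG) were matched 0 times in the 3 printed windows. A match is a description of letters and not a bound site. RefSeq starts the Kcnn4 gene at 24369826, upstream of the printed window.

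Channel genes were unevenly expressed. Of the 57, 7 reached a mean of 10 CPM over the 6 libraries, 21 reached 1 CPM, and 28 had a mean under 10 counts. The filter on low counts kept 27 for testing and dropped 30, which had at most 0.632 CPM on average. A dropped gene was too sparse for the test, and this does not show that it is absent. Subfamilies passed in unequal numbers, with 11 of 22 Kv pore subunits, 4 of 10 inward rectifiers, 5 of 6 tandem-pore channels, 3 of 8 calcium- and sodium-activated channels and 4 of 11 auxiliary subunits.

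Per kb of annotated exon, levels over the 6 libraries were 21.5 CPM per kb for Kcnk13, 9.77 for Kcnn3, 9.24 for Kcnf1 and 6.12 for Kcnh2. Kcnk13 made up 35.8% of the summed channel message per kb in WT replicate 2. In all other libraries Kcnk13 was between 7.64% and 14.1%. Kcnf1 made up 10.4%, 5.15% and 18.4% in KO and 5.69%, 2.53% and 1.46% in WT, and its groups overlapped. The summed channel message was 96.7 to 135.9 CPM per kb in KO and 108.2 to 178.6 in WT, so the groups overlapped.

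**Figure D1:**
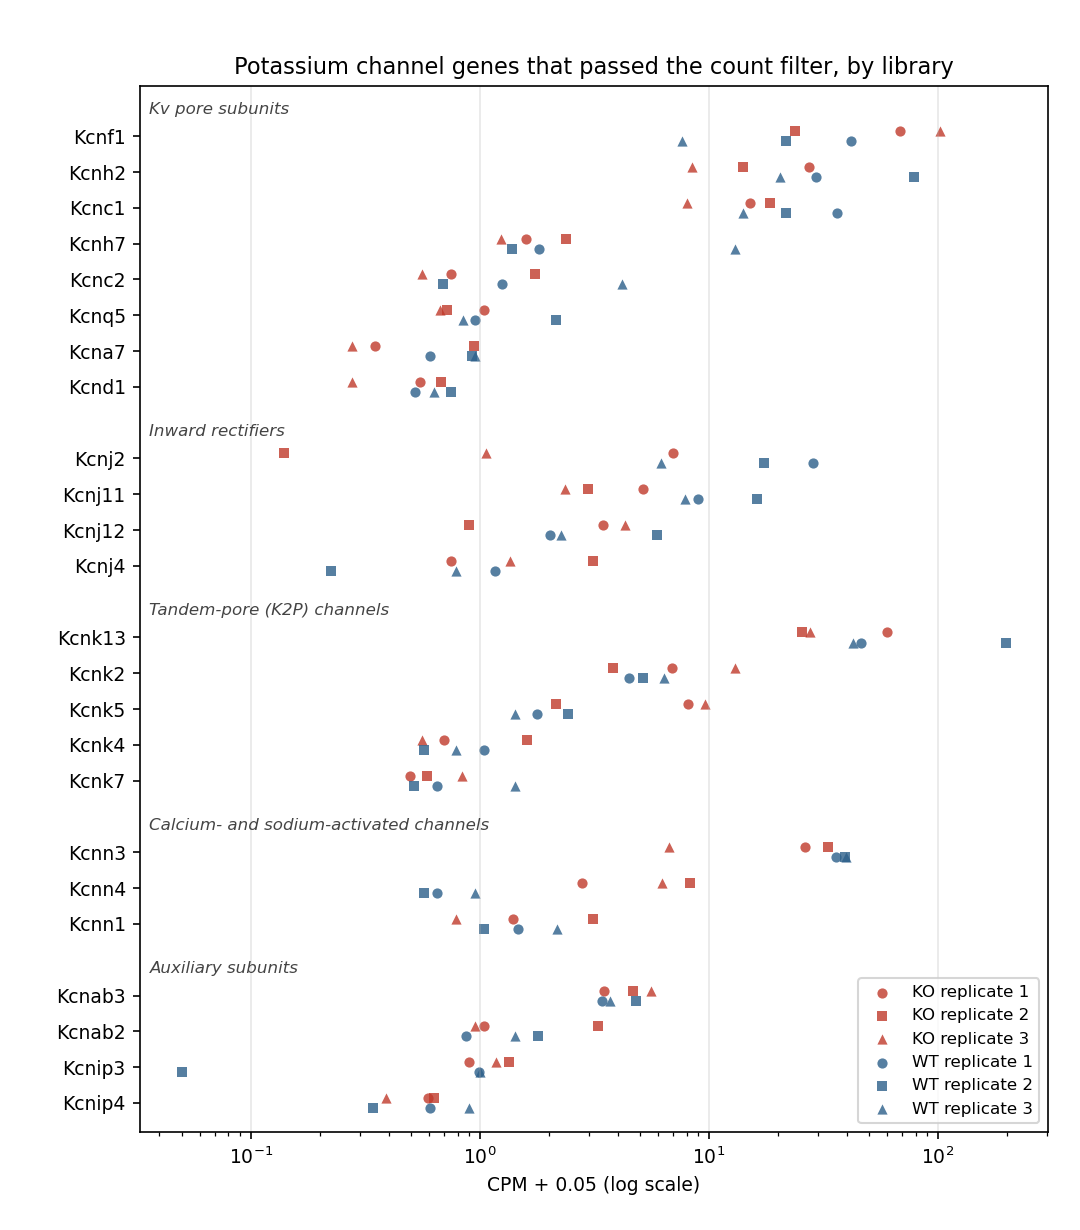
CPM of 24 of the 27 tested channel genes (rows, by subfamily) in each library on a log axis after adding 0.05, with KO in red, WT in blue and the marker shape giving the replicate number. Kcnn4 shows KO points to the right of all WT points, while Kcnj11 and Kcnn3 show them to the left.

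In the comparison of KO with WT, the edgeR quasi-likelihood test with Benjamini-Hochberg adjustment over all genes called 0 of the 27 channel genes higher and 0 lower, against 0% of all genes tested in each direction. Before adjustment, 2 had a p under 0.05 and were higher, Kcnn4 and Kcnk5, and 3 were lower, Kcnj11 and Kcnj2 among them. That is 18.5% of the channel genes tested, beside 17.7% of all genes tested (9.88% higher and 7.83% lower), so the share of channel genes at this level was near the background. In limma-voom 2 higher and 3 lower had such a p, and 0 passed after adjustment. No share over all genes is given for that unadjusted limma-voom count. DESeq2 called 2 higher, Kcnn4 and Kcnk5, where 4.17% of all its tested genes were called higher, and 1 lower, Kcnj11, where 2.21% were called lower. In the authors' deposited table the same 3 genes were past an adjusted p of 0.05, and 4.2% of genes with an adjusted p were higher and 2.13% lower. The edgeR exact test called Kcnn4 and Kcnj11, against 3.34% higher and 1.17% lower over all genes.

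Among all 27, 16 had a lower mean in KO by the fitted log2 fold change and 11 a higher one, with a median of -0.29. Over all genes tested 50.8% were negative and the median was -0.01. The libraries of the 2 groups did not overlap for 4 of the 27 genes, 1 higher and 3 lower, or 14.8%. Over all genes tested this share was 23.4%, with 13.2% higher and 10.2% lower. The number at an unadjusted p under 0.05 changed with single libraries left out, in fits for which no share over all genes is given. On the higher side it was 4 without the library labelled KO replicate 2. On the lower side it was 5 when KO replicate 1 was left out, 6 when WT replicate 1 was and 7 when WT replicate 3 was. It was 1 with KO replicate 3 left out and 2 with WT replicate 2 left out.

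**Figure D2:**
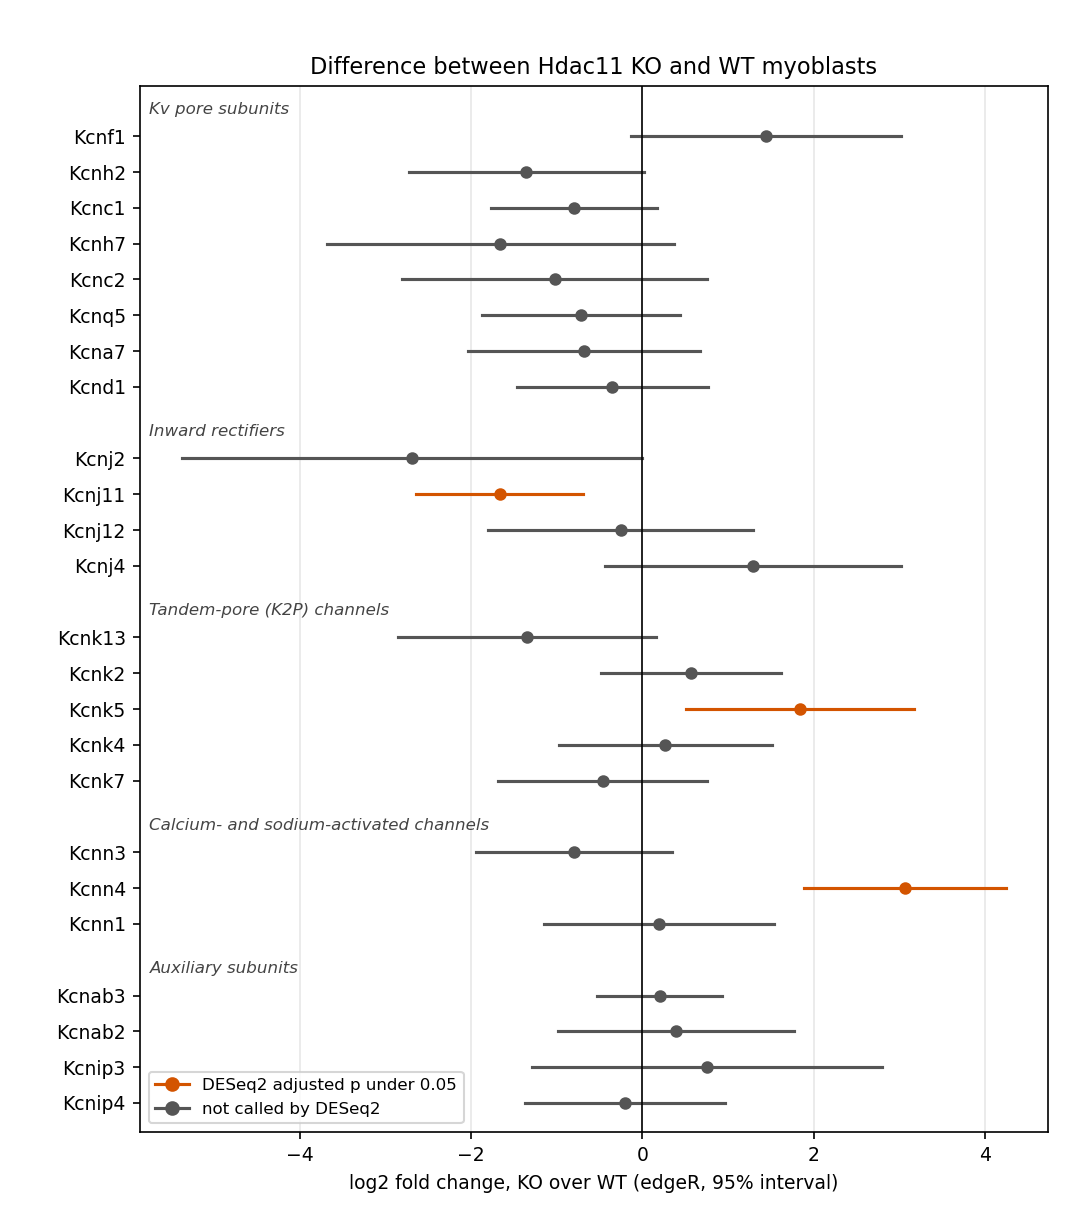
Fitted log2 fold change of KO over WT (horizontal axis, edgeR) with its 95% interval for 24 of the 27 tested channel genes (rows, by subfamily), coloured where DESeq2 gave an adjusted p under 0.05. Kcnn4 at 3.07, Kcnk5 at 1.84 and Kcnj11 at -1.66 are the coloured points, and most other intervals cross 0.

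Kcnn4 had the largest positive difference of the 27 tested channel genes. It encodes the intermediate-conductance calcium-activated channel, which opens through bound calmodulin independently of voltage and is known from red blood cells and lymphocytes. The gene (chromosome 7, 24369826 to 24385212 on GRCm38) had 55, 184 and 110 counts in KO and 14, 9 and 17 counts in WT. These are 2.74, 8.23 and 6.21 CPM in KO and 0.603, 0.524 and 0.900 CPM in WT. Every KO library stood above every WT library, and the lowest, KO replicate 1, was nearer to WT than the others. The means were 5.73 ± 2.78 CPM in KO and 0.676 ± 0.198 CPM in WT (SD, n = 3), 8.41-fold in the fit. In the edgeR fit its log2 fold change was 3.07 (SE 0.51, 95% interval 1.89 to 4.25), with an edgeR p of 0.000382 that was 0.138 after adjustment. The DESeq2 adjusted p was 9.59e-06, and the authors' deposited table gave a log2 fold change of 2.38 with an adjusted p of 6.02e-06. DESeq2 called Kcnn4 with each of the 6 libraries left out in turn, with adjusted p between 4.71e-09 and 0.00236. Without the library labelled KO replicate 2, which had the highest Kcnn4 level, the edgeR log2 fold change was 2.72.

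Because Kcnn4 is known from blood cells, markers of macrophages and leukocytes are given beside it. Of 8 such markers 5 were measured, with a summed level of 5.31 to 7.02 CPM in KO and 5.30 to 16.1 CPM in WT. Csf1r, Lyz2 and Cd3e were at 0 to 0.265 CPM in all libraries. The rest of that sum came from Cd68, at 1.51 to 4.61 CPM, and Itgam, at 1.75 to 14.3 CPM. The part of such cells in the Kcnn4 difference was not tested. A list of 10 genes of dividing cells, chosen with earlier results of these data known, was higher in KO. All 10 had an unadjusted edgeR p under 0.05, while 9.88% of all genes tested were higher at that p. The 10 genes had a summed level of 1080 to 1554 CPM in KO and 338 to 607 CPM in WT. Their part in the Kcnn4 difference was not tested. In a bulk sample, more cells with a message and more message per cell cannot be told apart.

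The small-conductance relatives of Kcnn4 differed from it. Kcnn3, whose channel is known from immature and denervated muscle fibres, was at 26.3, 32.9 and 6.67 CPM in KO and at 35.7, 39.3 and 39.5 CPM in WT. The WT libraries were close together and above all KO libraries, of which KO replicate 3 was far the lowest. Kcnn3 had a log2 fold change of -0.79 (SE 0.49, 95% interval -1.94 to 0.35), and edgeR's adjusted p was 0.419. Without KO replicate 3 it was -0.35, and without the library labelled KO replicate 2 it was -1.20. Kcnn1 had a log2 fold change of 0.20 that was -0.53 without the library labelled KO replicate 2. Kcnn2 was dropped by the filter, with 7, 7 and 0 counts in KO and 1, 13 and 21 in WT. The remaining genes of the group, Kcnma1 for the big-conductance channel, Kcnt1, Kcnt2 and Kcnu1, were dropped as well.

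Kcnk5, the other gene on the higher side, encodes an acid-sensitive tandem-pore channel that passes background current and takes part in cell volume regulation. It was at 8.07, 2.10 and 9.55 CPM in KO and at 1.72, 2.39 and 1.38 CPM in WT. KO replicates 1 and 3 were above all WT libraries, while the library labelled KO replicate 2 lay among the WT libraries, so the groups overlapped. For Kcnk5 the log2 fold change was 1.84 (SE 0.57, 95% interval 0.51 to 3.17), with an edgeR p of 0.0130, 0.202 after adjustment, and a DESeq2 adjusted p of 0.0240. The DESeq2 adjusted p was 6.50e-06 without the library labelled KO replicate 2. With KO replicate 1 left out it was 0.131 and with KO replicate 3 left out 0.349. Leaving out a WT library gave 0.0623, 0.0532 and 0.117 in replicate order, so the call was lost without any 1 of these 5 libraries.

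Of the other tandem-pore channels, Kcnk13 was the most abundant, a channel known from microglia. Its levels were 59.7, 25.4 and 27.7 CPM in KO and 46.2, 198.9 and 42.7 CPM in WT. WT replicate 2 was far above the rest, and the groups overlapped. The log2 fold change of -1.35 (SE 0.65) became -0.24 without WT replicate 2. Kcnk2, which encodes a stretch-sensitive channel, was at 6.87, 3.76 and 13.0 CPM in KO and 4.44, 5.12 and 6.35 CPM in WT, with a log2 fold change of 0.57. It was 0.02 without KO replicate 3 and 0.91 without the library labelled KO replicate 2, with an unadjusted edgeR p of 0.0435. Kcnk4 and Kcnk7 stayed at or under 1.57 CPM in every library. Kcnk4 had a log2 fold change of 0.27 that was -0.38 without the library labelled KO replicate 2.

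The inward rectifiers pass current more readily into the cell than out of it and keep the resting voltage near that of potassium. Kcnj2, the rectifier tied to hyperpolarization of human myoblasts before fusion, had 139, 2 and 18 counts in KO and 660, 297 and 116 in WT. These are 6.92, 0.0895 and 1.02 CPM in KO and 28.4, 17.3 and 6.14 CPM in WT. KO replicate 1 lay just above WT replicate 3, so the groups overlapped, and the library labelled KO replicate 2 was nearly without the message. The means were 2.68 ± 3.71 CPM in KO and 17.3 ± 11.1 CPM in WT (SD, n = 3). The log2 fold change was -2.69, the largest negative one of the 27 genes, but its SE was 1.15 and its 95% interval ran from -5.38 to -0.01. The edgeR p was 0.0497 and 0.281 after adjustment, and the DESeq2 adjusted p was 0.280. Leaving out KO replicate 1 gave a log2 fold change of -5.01 in edgeR and a DESeq2 adjusted p of 2.62e-06. Leaving out the library labelled KO replicate 2 gave -2.11, with an unadjusted edgeR p of 0.0623 and a DESeq2 adjusted p of 0.103. The unadjusted edgeR p was also above 0.05 without KO replicate 3 (0.134), WT replicate 1 (0.137) or WT replicate 2 (0.0745). With WT replicate 3 left out it was 0.0417. In DESeq2 the adjusted p was between 0.103 and 0.708 in the 5 fits that kept KO replicate 1.

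**Figure D3:**
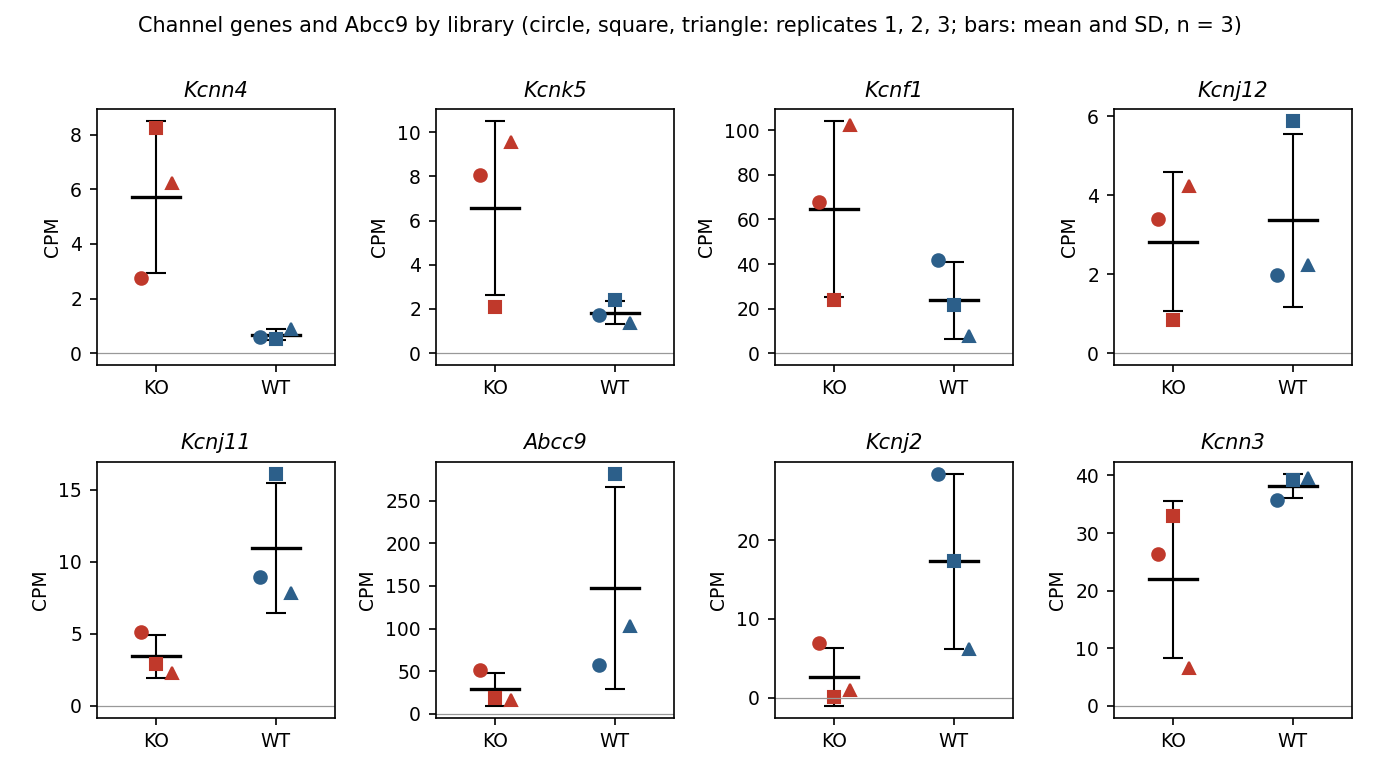
CPM (vertical axis, linear) of 7 channel genes and of Abcc9 in KO and WT libraries, with 1 point per library, the mean and the SD (n = 3). Kcnn4, Kcnj11, Abcc9 and Kcnn3 show no overlap of the groups, while in Kcnk5, Kcnf1, Kcnj12 and Kcnj2 at least 1 KO library lies among the WT libraries.

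Kcnj12, which encodes a close relative of the Kcnj2 channel, was at 3.39, 0.850 and 4.24 CPM in KO and at 1.98, 5.88 and 2.22 CPM in WT. Its log2 fold change was -0.25 (SE 0.66, 95% interval -1.80 to 1.29) and was 0.19 without the library labelled KO replicate 2 and 0.42 without WT replicate 2, so no direction can be given. Kcnj4, a further relative, was at 0.697, 3.09 and 1.30 CPM in KO and 1.12, 0.175 and 0.741 CPM in WT, with a log2 fold change of 1.29 (SE 0.74). It was 0.53 without the library labelled KO replicate 2, the highest of the 6, and 0.86 without WT replicate 2, the lowest. Kcnh1, the ether-a-go-go channel of the same sequence in human myoblasts, had 4, 7 and 3 counts in KO and 28, 12 and 8 in WT and was dropped by the filter. All 3 KO counts lay below the WT counts. In a fit with no filter its log2 fold change was -1.73, with an edgeR p of 0.0190 and an adjusted p of 0.267.

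Kcnj11 encodes the pore of the ATP-sensitive potassium channel, which closes when cellular ATP is high. The gene (chromosome 7, 46097123 to 46100952 on GRCm38) was at 5.13, 2.91 and 2.32 CPM in KO and at 8.96, 16.1 and 7.83 CPM in WT. Every KO library lay below every WT library. The means were 3.45 ± 1.48 CPM in KO and 11.0 ± 4.50 CPM in WT (SD, n = 3), 3.17-fold apart in the fit. The log2 fold change was -1.66 (SE 0.42, 95% interval -2.64 to -0.69), with an edgeR p of 0.00467 and an adjusted p of 0.158. DESeq2 gave an adjusted p of 0.00467, and that in the authors' deposited table was 0.00444. The DESeq2 adjusted p was 0.0940 without KO replicate 3 and 0.0902 without WT replicate 2, and 0.0457 without the library labelled KO replicate 2.

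The sulphonylurea receptors that complete the ATP-sensitive channel showed the same order of the groups. Abcc9, the receptor subunit known from skeletal and cardiac muscle, was at 51.4, 18.2 and 16.7 CPM in KO and at 57.4, 281.7 and 102.7 CPM in WT. Its log2 fold change was -2.35 (SE 0.67), with an edgeR adjusted p of 0.189 and a DESeq2 adjusted p of 0.00314. Abcc8, the receptor subunit known from pancreatic beta cells, was at 0.946 ± 0.432 CPM in KO and 2.56 ± 1.42 CPM in WT (SD, n = 3), with a DESeq2 adjusted p of 0.120. In both, no KO library reached the lowest WT library, which held for 10.2% of all genes tested. Genes of the sarcomere, 10 listed as a sign of differentiation with earlier results of these data known, were lower in KO by fitted value in all 10. Of these, 8 had an unadjusted edgeR p under 0.05. Over all genes tested, 50.8% were lower by fitted value and 7.83% were lower at that p. The summed level of the 10 genes was 23213, 10427 and 7853 CPM in KO and 19374, 56701 and 45533 CPM in WT. KO replicate 1 was the highest KO library in this sum, as it was for Kcnj11, Abcc9 and Kcnj2. Among the WT libraries the order was shared by Abcc9 only. There, replicate 1 was the lowest in the sum but the highest for Kcnj2, and Kcnj11 was lowest in replicate 3. The part of differentiation state in these differences was not tested.

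Of the Kv pore subunits tested, 9 of 11 had a negative log2 fold change, with a median of -0.71, and 1 of them was lower with an unadjusted p under 0.05. Of all genes tested, 50.8% were negative and 7.83% were lower at that p, so 1 of 11 was near the background. Kcnf1 encodes a silent subunit that forms no channel alone and modifies other Kv channels. It was on the higher side, at 68.0, 23.8 and 102.6 CPM in KO and 41.8, 21.7 and 7.57 CPM in WT. KO replicates 1 and 3 were above all WT libraries and the library labelled KO replicate 2 was not. Kcnf1 had a log2 fold change of 1.45 (SE 0.67, 95% interval -0.13 to 3.02), with an edgeR p of 0.0665. It was 0.96 without KO replicate 3. Without the library labelled KO replicate 2 it was 1.85, with an unadjusted edgeR p of 0.0247 and a DESeq2 adjusted p of 0.0547. Without WT replicate 1 it was 2.16, and DESeq2 then called it with an adjusted p of 0.0106. Per kb, its level was 13.5 CPM per kb in KO and 4.95 in WT.

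Kcnh2, which encodes a channel that shortens the cardiac action potential and has been linked in mouse to muscle atrophy, was at 27.4, 14.1 and 8.42 CPM in KO and 29.2, 78.3 and 20.4 CPM in WT. The log2 fold change of -1.35 (SE 0.59) became -0.57 without WT replicate 2 and -1.91 without KO replicate 1, where the DESeq2 adjusted p was 0.0201. Kcnc1, for a fast delayed rectifier, was at 15.1, 18.4 and 7.96 CPM in KO and 36.1, 21.7 and 14.1 CPM in WT, with a log2 fold change of -0.79 (SE 0.41). Both pairs of groups overlapped. Kcnh7, a relative of Kcnh2, was at 1.19 to 2.33 CPM in 5 libraries and at 13.0 CPM in WT replicate 3, and its log2 fold change was -1.66 (SE 0.87). Kcnc2, Kcnq5, Kcna7 and Kcnd1 had values between 0.226 and 4.13 CPM in all libraries and intervals that include 0.

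Auxiliary subunits were sparse. Kcnab3, a cytoplasmic beta subunit of Kv channels, was at 3.44, 4.61 and 5.54 CPM in KO and 3.36, 4.77 and 3.65 CPM in WT, a log2 fold change of 0.20 (SE 0.31, 95% interval -0.52 to 0.93). Gm16040, on the opposite strand, covers 5.13% of its annotated exons. Kcnab2, also a beta subunit, had a log2 fold change of 0.39 that was -0.45 without the library labelled KO replicate 2. Kcnip3 and Kcnip4, calcium-binding partners of Kv channels, had log2 fold changes of 0.76 (SE 0.87) and -0.20 (SE 0.50). Kcnip3 had 0 counts in WT replicate 2, and its value was 0.20 without that library and 1.17 without WT replicate 1. For Kcnip4, leaving out the library labelled KO replicate 2 gave -0.34, and leaving out WT replicates 2 and 3 in turn gave -0.50 and 0.19. No auxiliary subunit had an unadjusted p under 0.05.

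Of the 30 dropped genes, 1 higher and 2 lower had an edgeR p under 0.05 when no filter was applied, and 0 passed after adjustment. No share over all genes is given for that fit, so these numbers have no background beside them. The genes were Kcnt1, with 1, 2 and 3 counts in KO and 0 in each WT library, Kcng2, with 0 in each KO library and 1, 5 and 5 in WT, and Kcnh1. For Kcnt1 and Kcng2, no fold change is given at counts this low.

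The calcium entry and calcineurin pathway on which the hyperpolarization acts was described by 25 listed genes, 23 of them measured and 21 tested. After adjustment edgeR called 0. Before adjustment 2 were higher and 5 lower with a p under 0.05, while DESeq2 had calls for 0 higher and 3 lower. Over all genes tested 9.88% were higher and 7.83% lower at that p, and DESeq2 called 4.17% higher and 2.21% lower. The median log2 fold change was -0.11, beside -0.01 for all genes tested. Stim1 and Rcan2 were among the DESeq2 calls. Stim1, the calcium sensor of the sarcoplasmic reticulum that opens store-operated entry, was at 58.5, 34.9 and 36.1 CPM in KO and 76.7, 129.5 and 75.8 CPM in WT, with a DESeq2 adjusted p of 0.0154. Rcan2, a regulator of calcineurin, was at 2.15 ± 0.356 CPM in KO and 7.35 ± 5.09 CPM in WT (SD, n = 3), with a DESeq2 adjusted p of 0.0168. In both the groups did not overlap. Stim2 and Rcan1 had log2 fold changes of -0.58 and -0.80, and Orai2 and Calm2 of 0.47 and 0.53. Cacna1h, the low-voltage calcium channel opened in that window, was at 12.8, 3.49 and 3.28 CPM in KO and 12.2, 29.8 and 2.65 CPM in WT, with an edgeR p of 0.206. The calcineurin catalytic subunits Ppp3ca and Ppp3cb had log2 fold changes of -0.11 and 0.18.

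Other channels and pumps of the muscle membrane were lower in KO by fitted value in 8 of 10, with 5 at an unadjusted p under 0.05, 0 called by edgeR after adjustment and 2 by DESeq2. Over all genes tested 50.8% were lower by fitted value, 7.83% were lower at that p, and 2.21% were called lower by DESeq2. Cacna1s, the voltage sensor of the transverse tubule and among the DESeq2 calls, was at 151.2, 73.4 and 40.4 CPM in KO and 129.5, 506.1 and 261.2 CPM in WT, so KO replicate 1 lay within the WT range, and the DESeq2 adjusted p was 0.0250. Scn4a, Clcn1 and Slc12a2, for the muscle sodium channel, the muscle chloride channel and a sodium-potassium-chloride carrier, had log2 fold changes of -1.60, -1.48 and -1.21. The groups overlapped in each of them, and the DESeq2 adjusted p was 0.0584, 0.0983 and 0.0972.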

How the data were processed

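Per the submitters' processing notes, GRCm38 and these tools were used: TopHat2 2.0.8, Bowtie2, Trimmomatic, FastQC, DESeq2 and featureCounts. Their order, settings and use of strand are not stated there. The deposited counts were raw whole numbers per gene, one column a library. A second set of deposited columns, a signal, held those counts after the authors' division by a size factor, and was not used. The deposited log2 fold changes, test scores, p-values and adjusted p-values were the authors' own, and 7268 adjusted p-values were NA.

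All fits used the raw counts of 14835 genes kept by filterByExpr, TMM scaling and edgeR 4.0.16 quasi-likelihood tests in R 4.3.3; DESeq2 1.42.0 (on all 21778 genes) and limma-voom (limma 3.58.1) were alternatives. Standard errors and 95% intervals of edgeR folds come from the F statistic. p-values measure the spread between 3 cultures a group, whose animals the labels do not number. Exon lengths are unions of GENCODE vM1 exons and were used as lengths only. Positions are from RefSeq on GRCm38.p6. The scripts were tested on simulated counts. Members and lists were chosen with earlier results of these data known. The named genes were channel genes called by edgeR or DESeq2 or with an unadjusted edgeR p under 0.05, Kcnn4, Kcnj2, Kcnj12, Kcnh1, the 4 of highest mean CPM per subfamily, and genes of the pathway, membrane and receptor lists with an unadjusted p under 0.05. Other genes in the text were chosen after their values were seen. Replicate numbers did not pair the libraries (same-numbered deviations correlated at -0.25, -0.07 and 0.05). Some named genes are not reported here, in text or figures, though counts over lists include them.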

Additional observations from a re-analysis of the deposited data

How the results depend on the processing

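Alternatives changed the scaling, filter, test, threshold, a sex covariate (read from the counts), a replicate block, the use of the authors' deposited calls, or left out each library; DESeq2 with a library left out was added after seeing the data. By Xist against Y-linked counts, KO replicate 3 and WT replicate 1 were read as male and the other libraries as female. Each result was compared once per setting. Of pairs of a count and a setting, 50 stayed within 1.5 times and 26 did not. For the 19 single genes, none called in edgeR, so that no call could be lost, 19 pairs newly passed the threshold and 15 turned sign. The cause of the differences was not tested.

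Channel genes past the adjusted threshold numbered 0 higher and 0 lower in edgeR and 2 and 1 in DESeq2 and in the authors' deposited table. They numbered 1 and 1 in the edgeR exact test. DESeq2 with a library left out gave 1 to 2 higher and 0 to 4 lower. The number called over all genes moved as well in those fits, from 214 without KO replicate 3 to 1522 without WT replicate 1. It was 1062 without KO replicate 1, the fit with 4 channel genes lower. At an unadjusted p under 0.05, the 2 higher and 3 lower became 4 and 6 without the filter, 7 lower in DESeq2 and 5 lower in the exact test, and 2 to 4 higher and 1 to 7 lower with a library left out in edgeR. With the sex covariate there were 3 higher and 4 lower, and 0 past the adjusted threshold. The unadjusted edgeR p was then 0.0188 for Kcnf1, 0.0288 for Kcnh2, 0.0410 for Kcnn3 and 0.0787 for Kcnj2. With the replicate block there were 1 higher and 4 lower, and 0 past the adjusted threshold. The replicate numbers did not pair the samples. For these unadjusted counts outside the main fit, no share over all genes is given.

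With a library left out, log2 fold changes in edgeR ran from -0.64 to 0.42 for Kcnj12, -0.38 to 0.57 for Kcnk4, -0.53 to 0.57 for Kcnn1, -0.45 to 0.71 for Kcnab2 and -0.50 to 0.19 for Kcnip4, and these 5 genes hold every change of sign. In DESeq2, values that turned sign were 0.19 and 0.41 (Kcnj12), -0.39 (Kcnk4), -0.54 and -0.035 (Kcnn1), -0.46 (Kcnab2) and 0.18 (Kcnip4).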

Other observations

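The table holds 5 further Kcn symbols outside the rule. Kcnq1ot1, the imprinted antisense RNA at the Kcnq1 locus, was at 58.2, 41.7 and 52.3 CPM in KO and 40.1, 112.9 and 117.0 CPM in WT, with a log2 fold change of -0.83 and an edgeR p of 0.0647. Kcnq1 itself, dropped by the filter, was at 0.448, 0.0447 and 0.734 CPM in KO and 0.129, 2.33 and 0.106 CPM in WT. Kcnq1ot1 lies within the span of the Kcnq1 gene. The use of strand is not stated, so the strand that its reads came from is not known. Kcnrg, Kcne1l, Kcnab3os and Kcnmb4os2 stayed under 1 CPM in every library.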
